A study of Homo sapiens with 36 samples.

Results

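A set of 10 genes of the pluripotency network was followed while human embryonic stem cells were turned into neurons. The genes were POU5F1, NANOG, LIN28A, LIN28B, DPPA4, TDGF1, ZFP42, L1TD1, SALL4 and PRDM14. They were chosen by name, as a fixed list of core factors, and all 10 were found among the 62710 genes counted. The cells were H9 human embryonic stem cells, a line derived from a blastocyst, in which doxycycline turns on NGN2 (NEUROG2), a transcription factor that drives stem cells directly into neurons. WT cells, cells heterozygous for a RAI1 mutation (HET) and RAI1 knockout cells (KO) were compared. RAI1 encodes a chromatin-associated transcriptional regulator. Cells of each genotype were collected before induction (day 0) and on its days 3 and 7, which gives 9 groups of 4 libraries, or 36 libraries. WT, HET and KO cells shared the H9 background, the doxycycline-dependent NGN2, growth on Geltrex in mTeSR Plus, and Neurobasal-A medium with B27, GDNF, NT3 and CultureOne. The labels number the 4 libraries of a group as biological replicates, but do not state how many clones stand behind a genotype or whether replicates came from separate inductions, so the p-values measure the spread between these libraries.

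Total RNA was sequenced after ribosomal RNA depletion, and the libraries held from 23948079 to 56678796 counts. Levels are given as CPM, the counts of a gene scaled to a fixed library total, and, where genes are compared with each other, as TPM, which also corrects for transcript length. RAI1 mRNA was not lower in the libraries labelled HET or KO. Its day 0 means were 36.1 ± 8.99 CPM in WT, 41.5 ± 8.99 CPM in HET and 40.3 ± 14.1 CPM in KO (SD, n = 4), so a count over the whole gene does not check these labels. Small structural RNAs took 2.84 to 27.5% of the counts of a library.

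In primed human stem cells POU5F1 (OCT4) and NANOG are the transcription factors at the centre of the self-renewal circuit, and they bind many of the same enhancers. SALL4, PRDM14 and ZFP42 (REX1) are zinc finger proteins around that centre, and DPPA4 is a chromatin-bound protein of early embryonic cells. TDGF1 (CRIPTO) is a coreceptor for NODAL at the cell surface. LIN28A, LIN28B and L1TD1 bind RNA, and the LIN28 proteins block the maturation of the let-7 microRNAs. The let-7 family in turn represses LIN28 mRNAs, so that stem cells hold LIN28 high and let-7 low, and differentiating cells move to the reverse state. Exit from pluripotency requires that this network is shut down, and genes of the network are silenced at different speeds.

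The sequences shown here are those through which this network is known to be held together. The first is the stretch of 250 bases upstream of NANOG (RefSeq, GRCh38.p14, chr12:7789152-7789401, plus strand), which holds the composite octamer and SOX site through which NANOG is known to be driven. In it the octamer core TTTGCAT begins 120 bases and ACAATG 112 bases before the annotated start, and both are in capitals.
NANOG upstream: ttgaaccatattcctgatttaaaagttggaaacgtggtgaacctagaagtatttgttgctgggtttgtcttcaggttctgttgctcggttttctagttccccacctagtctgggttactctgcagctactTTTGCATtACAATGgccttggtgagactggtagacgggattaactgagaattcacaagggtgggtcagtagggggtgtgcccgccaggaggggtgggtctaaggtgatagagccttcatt
Among 35116 annotated promoters, searched on both strands from 250 bases before to 50 bases after the start, TTTGCAT was found in 4.46% and ACAATG in 10.8%. The joined form TTTGCATTACAATG was found in 1 of them. A match of letters is a description and not a measured binding site. The second set joins LIN28 to let-7. The mature let-7 microRNAs share the seed in capitals, bases 2 to 8.
hsa-let-7a-5p: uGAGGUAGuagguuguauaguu
hsa-let-7g-5p: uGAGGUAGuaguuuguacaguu
The matching 8-base site CTACCTCA was found in the 3′UTR of LIN28A (1 site), LIN28B (2 sites) and SALL4 (1 site), and in none of the other 7 genes. Of 18769 genes with an annotated 3′UTR, 3.72% held it. The first site of each gene is shown in capitals, with its flanks, from the GENCODE 29 transcripts.
LIN28A site: agcctattgaaCTACCTCAtttttgccaat
LIN28B site: ggttgcaaagtCTACCTCAtgcaagtatag
SALL4 site: ctttaatttatCTACCTCAtttatttttta
On the other side of the loop, LIN28 proteins are known to hold on to the GGAG motif in the let-7 hairpin. It was found in 9 of the 12 annotated let-7 family hairpins, among them MIRLET7G, and was absent from MIRLET7A3.
MIRLET7G hairpin: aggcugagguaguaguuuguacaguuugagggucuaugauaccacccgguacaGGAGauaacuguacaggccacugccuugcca
MIRLET7A3 hairpin: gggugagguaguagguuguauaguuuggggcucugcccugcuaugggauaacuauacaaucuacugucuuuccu
Mature let-7 was not measured in these libraries.

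At day 0, before induction, 9 of the 10 genes were expressed in every WT library, and the exception was ZFP42. On the TPM scale, LIN28A stood highest in WT at 362 ± 67.2 TPM (SD, n = 4), followed by POU5F1 at 230.3 ± 35.8 TPM and DPPA4 at 137 ± 21.7 TPM. These first ranks did not overlap between libraries. The ranges of DPPA4, L1TD1 (86.7 ± 24.98 TPM), TDGF1 (61.2 ± 15.8 TPM), SALL4 (46.2 ± 6.91 TPM) and LIN28B (37.2 ± 6.14 TPM) overlapped from each gene to the next, so their order is within the spread. PRDM14 (21.7 ± 4.31 TPM) and NANOG (19.4 ± 2.38 TPM) formed a lower pair that overlapped, and ZFP42 came last at 1.26 ± 2.50 TPM. In the GRCh38 annotation of GENCODE 29, LIN28A lies on chromosome 1 (26410778 to 26429722), LIN28B on chromosome 6 (104936616 to 105083332), DPPA4 on chromosome 3 (109326141 to 109337572) and SALL4 on chromosome 20 (51782331 to 51802520). POU5F1 (chromosome 6, 31164337 to 31180731) overlaps TCF19 and PSORS1C3, TDGF1 (chromosome 3, 46574534 to 46582463) overlaps LRRC2 and L1TD1 (chromosome 1, 62194831 to 62212328) overlaps AL162739.1. NANOG and TDGF1 also have near-identical processed copies that can take reads: NANOGP8 stood at 13.0 to 18.9 CPM and TDGF1P3 at 4.12 to 7.91 CPM in WT at day 0. POU5F1 has copies too, POU5F1P3 at 1.25 to 1.96 CPM and POU5F1P4 at 1.47 to 2.16 CPM in WT at day 0. In WT at day 7 POU5F1P4 stood at 0.272 to 0.669 CPM, where POU5F1 did not exceed 0.174 CPM. The part of read assignment in the low POU5F1 levels after day 0 was not tested. Markers of other lineages were low in WT at day 0: the 8 mesendoderm genes summed to 0.903 to 1.82 CPM, with SOX17 at or under the level that 3 counts give, and the 7 trophectoderm and amnion genes summed to 1.66 to 2.67 CPM.

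**Figure D1:**
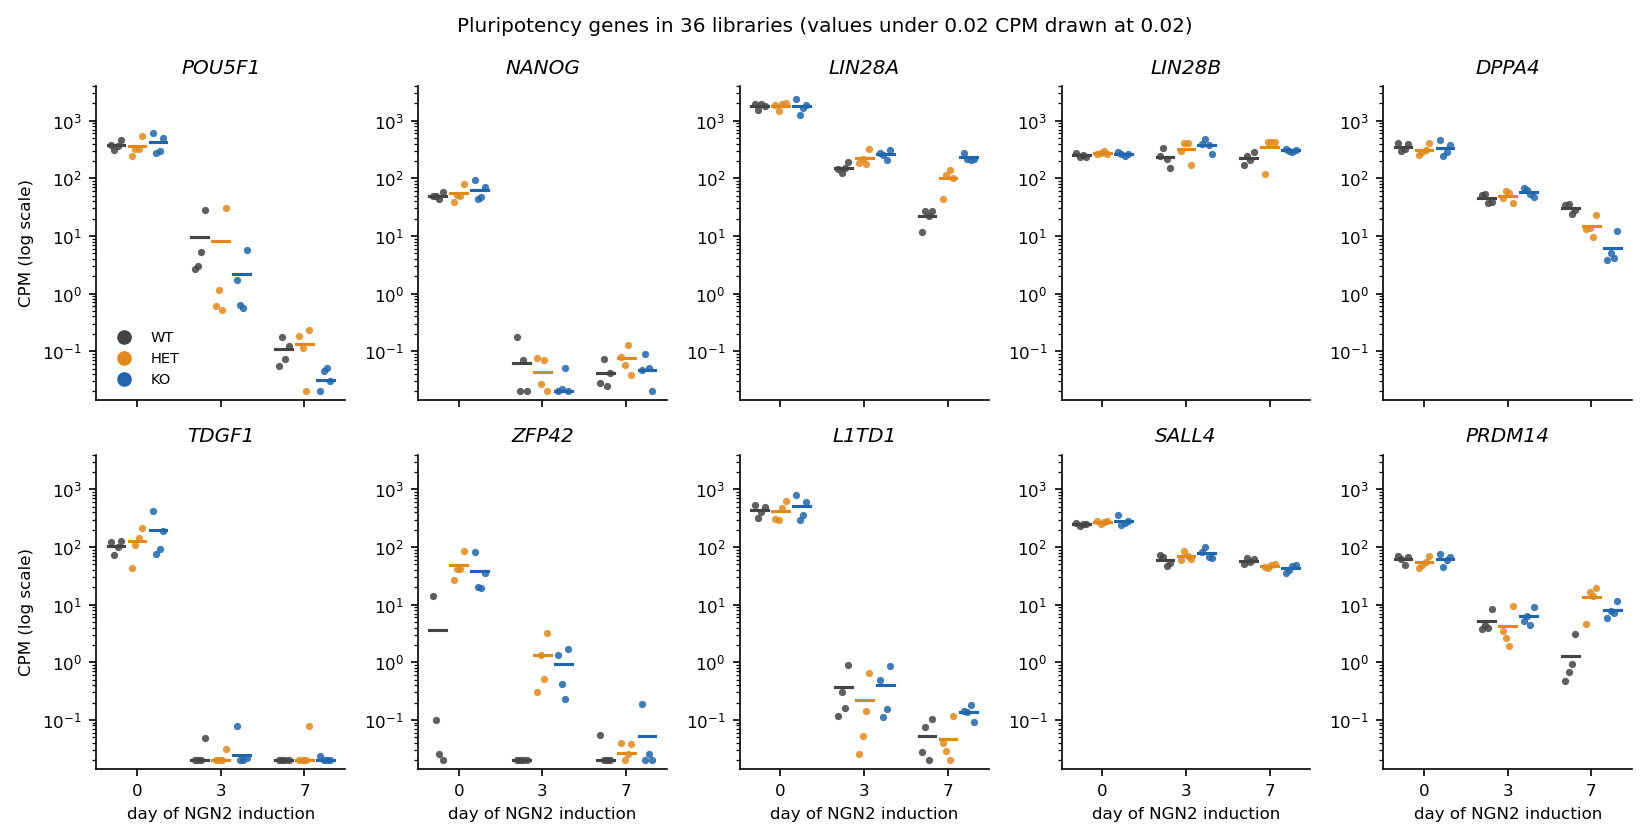
CPM on a log scale (vertical axis) against day of induction (horizontal axis) for each of the 10 genes; each point is 1 library, the bar is the mean of 4 libraries, and grey, orange and blue stand for WT, HET and KO. POU5F1, NANOG, TDGF1 and L1TD1 fell by orders of magnitude in all 3 genotypes, LIN28B overlapped between days in WT on this scale, and at day 7 LIN28A, DPPA4 and PRDM14 did not overlap between WT and either mutant.

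In WT cells 8 of the 9 genes that could be tested fell between day 0 and day 3 of NGN2 induction (edgeR quasi-likelihood test, Benjamini-Hochberg adjusted p under 0.05). Among all genes tested, 60.0% changed and 28.7% were lower. The median log2 difference of the 9 genes was -3.45, against 0.07 over all genes tested. NANOG, TDGF1 and L1TD1 were near 0 at day 3 and passed the filter only through day 0, where they were high. They had to differ, and they are counted among the 8 and in the median. ZFP42 did not pass the count filter in WT.

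The central factors fell far but not alike. POU5F1 stood at 383, 307, 358 and 469 CPM in the 4 WT libraries of day 0, at 2.63, 2.97, 5.20 and 28.1 CPM at day 3 and at 0.0557, 0.174, 0.0742 and 0.125 CPM at day 7. The days did not overlap, and WT replicate 4 was far above the other day 3 libraries. The log2 difference was -5.10 ± 0.69 (SE) from day 0 to day 3, with an adjusted p of 1.8e-05, and -6.41 ± 0.92 from day 3 to day 7, with an adjusted p of 5.1e-05. Here and below this SE is the size of the difference divided by the square root of the test's F statistic. It is too narrow for genes near 0, such as NANOG and TDGF1 after day 0. NANOG, at 49.5, 48.9, 42.9 and 58.2 CPM on day 0, was already down to 9, 0, 3 and 0 counts per library at day 3, a log2 difference of -9.39 ± 0.45 (adjusted p = 1.3e-09). At day 7 NANOG had 1, 3, 1 and 2 counts. Pooled over libraries, day 3 WT cells held 2.48% (2.37 to 2.61%) of their day 0 level of POU5F1 and 0.136% (0.0702 to 0.237%) of that of NANOG, where the brackets are 95% intervals for counting error only. In these bulk libraries fewer cells that express a gene and less RNA per cell cannot be told apart.

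TDGF1 and L1TD1 were emptied at day 3. TDGF1 went from 122, 72.1, 100.1 and 126 CPM in WT at day 0 to 0, 0, 0 and 2 counts at day 3 and to no count in any WT library at day 7. Set against 3 counts over the group, the day 7 level was at least 5647-fold lower than that of day 0. L1TD1, an RNA-binding protein derived from a LINE-1 element, went from 546, 316, 399 and 492 CPM to 0.117, 0.304, 0.164 and 0.884 CPM. The log2 differences from day 0 to day 3 were -12.73 ± 0.46 for TDGF1 (adjusted p = 1.9e-09) and -10.11 ± 0.52 for L1TD1 (adjusted p = 2.2e-09).

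DPPA4, SALL4 and PRDM14 were lowered but still read at day 3. DPPA4 stood at 409, 299, 328 and 388 CPM in WT at day 0, at 52.2, 54.5, 37.4 and 38.5 CPM at day 3 and at 34.6, 35.3, 23.6 and 28.4 CPM at day 7. Most of its loss came before day 3 (-2.86 ± 0.15, adjusted p = 3.1e-09), and the later step was small (-0.47 ± 0.14, adjusted p = 0.015) and was not called on log2(TPM + 1) (-0.52, limma adjusted p = 0.14). SALL4 went from 265, 229, 255 and 250.8 to 74.1, 68.2, 46.3 and 53.6 CPM, a log2 difference of -1.94 ± 0.14 (adjusted p = 3.6e-08). It stood at 51.3, 64.1, 54.9 and 61.9 CPM at day 7, with no called change from day 3 (0.06 ± 0.13, adjusted p = 0.75). SALL4 is also made outside pluripotent cells in early embryonic tissues. PRDM14, a partner of the polycomb machinery at stem cell genes, stood at 70.8, 61.4, 48.4 and 66.4 CPM in WT at day 0, 3.82, 4.52, 3.91 and 8.34 CPM at day 3 and 0.474, 0.670, 0.939 and 3.13 CPM at day 7. It fell at both steps, with log2 differences of -3.45 ± 0.47 and -1.84 ± 0.48 and adjusted p of 2.2e-05 and 0.0056.

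The LIN28 paralogs went separate ways. LIN28A stood at 1974, 1555, 1913 and 1801 CPM in WT at day 0, at 143, 124, 149.7 and 191 CPM at day 3 and at 11.8, 26.9, 22.6 and 26.8 CPM at day 7, and the days did not overlap. LIN28A fell at both steps, with log2 differences of -3.45 ± 0.25 (adjusted p = 5.8e-08) and -2.69 ± 0.25 (adjusted p = 8.7e-07). LIN28B stood at 276, 235, 257 and 236 CPM at day 0, 247, 335, 219 and 153 CPM at day 3 and 172, 247, 209.9 and 284 CPM at day 7, and these ranges overlapped. Its log2 difference from day 0 to day 3 was 0.02 ± 0.19 (adjusted p = 0.93). This rests on the count scale: on log2(TPM + 1) LIN28B fell by 0.95 with a limma adjusted p of 0.014, where the median of all genes moved by -0.69. The LIN28B locus overlaps LIN28B-AS1, and it is not stated whether strand was used in counting, so reads of both cannot be told apart. By day 7, LIN28B was the most abundant of the 10 genes in WT at 16.2 ± 5.77 TPM, ahead of DPPA4 at 6.97 ± 1.93 TPM, SALL4 at 4.70 ± 1.00 TPM and LIN28A at 2.04 ± 0.902 TPM. Neighbours in that order did not overlap, except for DPPA4 and SALL4. PRDM14 came next at 0.207 ± 0.204 TPM, and the other 5 genes had means of 0.0300 TPM or less.

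**Figure D2:**
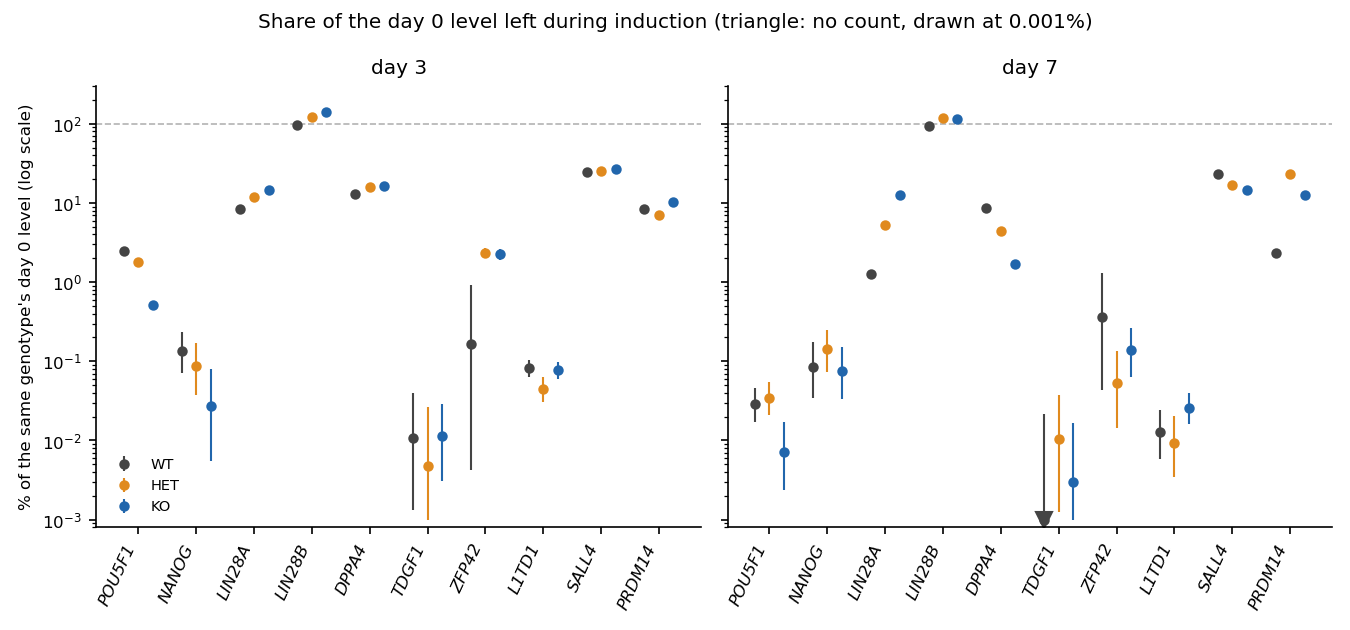
Level left at day 3 and day 7 as a percentage of the same genotype's day 0 level (vertical axis, log scale) for each gene (horizontal axis); points pool 4 libraries, bars are 95% counting intervals, the dashed line marks no change and the triangle marks no count. In WT at day 3, LIN28B kept 95.5%, SALL4 24.6%, DPPA4 13.1%, LIN28A 8.39%, PRDM14 8.28%, POU5F1 2.48% and L1TD1 0.0819%.

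In both mutants the network was lowered as well. In HET, 9 of 10 genes fell from day 0 to day 3 (48.3% of all genes tested were called, 23.9% lower), and LIN28B was not called (0.30 ± 0.31, adjusted p = 0.44). In KO all 10 were called (59.3% of all genes tested), 9 of them lower (29.6%). In both mutants NANOG, TDGF1 and L1TD1 again passed the filter only through their high day 0 libraries, so that they had to differ. LIN28B rose in KO, from 283, 264, 248 and 266 to 397, 473, 386 and 266 CPM, with a log2 difference of 0.64 ± 0.14 (adjusted p = 0.0011). The ranges overlapped, and on log2(TPM + 1) the difference was 0.15 with a limma adjusted p of 0.78.

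The step from day 3 to day 7 was then read in each genotype. In WT 5 of 9 genes were called (46.2% of all genes tested), POU5F1, LIN28A, DPPA4, L1TD1 and PRDM14, and all 5 fell (22.9% were lower). L1TD1 passed the filter only through day 0 and held 63 pooled counts at day 3 and 9 at day 7. On log2(TPM + 1) it was not called (-0.04, limma adjusted p = 0.90). In HET 6 of 10 were called (41.2%): POU5F1, LIN28A, DPPA4, ZFP42 and SALL4 fell and PRDM14 rose. HET PRDM14 stood at 3.45, 2.63, 1.94 and 9.32 CPM at day 3 and 4.55, 16.8, 14.4 and 19.1 CPM at day 7. That is a log2 difference of 1.63 ± 0.50 (adjusted p = 0.018), with ranges that overlapped. On log2(TPM + 1) limma called none of the 6 HET genes (PRDM14 at 1.39, adjusted p = 0.062). In KO 4 of 10 were called (47.8%), POU5F1, DPPA4, ZFP42 and SALL4, all lower. At day 7 POU5F1 held 18, 19 and 5 pooled counts in WT, HET and KO, and ZFP42 held 4 in HET and 9 in KO. Both passed the filter only through earlier days, where they were high, so their calls are a description. In KO, LIN28A changed by -0.10 ± 0.21 (adjusted p = 0.73) and PRDM14 by 0.47 ± 0.27 (adjusted p = 0.16), neither called.

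The genotypes were then compared at each day. HET and KO were compared with the same WT libraries, so the 2 comparisons share their controls. At day 0 all 10 genes were tested and none was called in KO against WT (2.08% of all genes were called) or in HET against WT (1.63%). In both comparisons 1 gene, ZFP42, had an unadjusted p under 0.05, DESeq2 called none, and limma on log2(TPM + 1) called ZFP42. The median log2 difference of the 10 genes was 0.20 in KO and 0.09 in HET, against 0.01 over all genes in each. KO against HET also gave none of 10 (0.856% of all genes), none with an unadjusted p under 0.05 and none by DESeq2.

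Some day 0 levels had a wide spread within the mutant groups. TDGF1, the NODAL coreceptor, stood at 122, 72.1, 100.1 and 126 CPM in WT, 43.9, 108, 141 and 215 CPM in HET and 419, 76.6, 93.9 and 188 CPM in KO. KO replicate 1 was the highest KO library for all 10 genes, and HET replicate 4 the highest HET library for 9 of 10. POU5F1 reached 620.0, 269.8, 298 and 492 CPM in KO and 239.6, 324, 319.7 and 547 CPM in HET. L1TD1 reached 798, 292, 353 and 597 CPM in KO. CDX2, a trophectoderm and amnion gene, stood at 29.2, 0, 0.251 and 0.840 CPM in HET and 15.7, 0.258, 0.544 and 1.41 CPM in KO, against at most 0.0749 CPM in WT. Its highest KO library was replicate 1, as for the 10 genes, but its highest HET library was the one lowest for TDGF1 and POU5F1. The 8 mesendoderm markers summed to 2.63 to 7.23 CPM in HET and 1.66 to 5.602 CPM in KO at day 0, against 0.903 to 1.82 CPM in WT. Of their 3 tested genes 1 was called in HET, EOMES, at 1.92 ± 0.981 against 0.309 ± 0.294 CPM in WT (2.60, adjusted p = 0.032), and none in KO (EOMES 2.06, adjusted p = 0.089). The part of these markers in the day 0 levels was not tested.

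ZFP42 was the only one of the 10 genes whose WT and mutant libraries did not overlap at day 0. ZFP42 is a classical stem cell marker whose protein is a DNA-binding relative of YY1. It stood at 14.3, 0.0998, 0.0258 and 0 CPM in the 4 WT libraries (482, 4, 1 and 0 counts), at 27.2, 42.3, 41.8 and 85.4 CPM in HET and at 80.7, 19.9, 19.5 and 34.7 CPM in KO. Every mutant library was above every WT library, HET and KO overlapped, and WT replicate 1 stood apart from the other WT libraries, which had almost no reads. Of all genes, 9.42% had groups that did not overlap in KO against WT and 7.85% in HET against WT. The log2 differences were 3.48 ± 1.21 in KO (adjusted p = 0.21) and 3.81 ± 1.22 in HET (adjusted p = 0.21), neither called. Without WT replicate 1 they were 9.65 in KO (adjusted p = 2.1e-04) and 9.98 in HET (adjusted p = 1.4e-04). With or without that library, ZFP42 passed the filter only through its mutant libraries, where it was high. Without that library WT was left with 4, 1 and 0 counts, so that ZFP42 had to differ. With the replicate number as a block, ZFP42 was called in KO against WT (4.27, adjusted p = 0.0498), where same-numbered libraries deviated together. That fit also held the HET libraries, whose numbers were not shown to pair with WT or KO (lowest correlations of deviations -0.026 and -0.035).

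**Figure D3:**
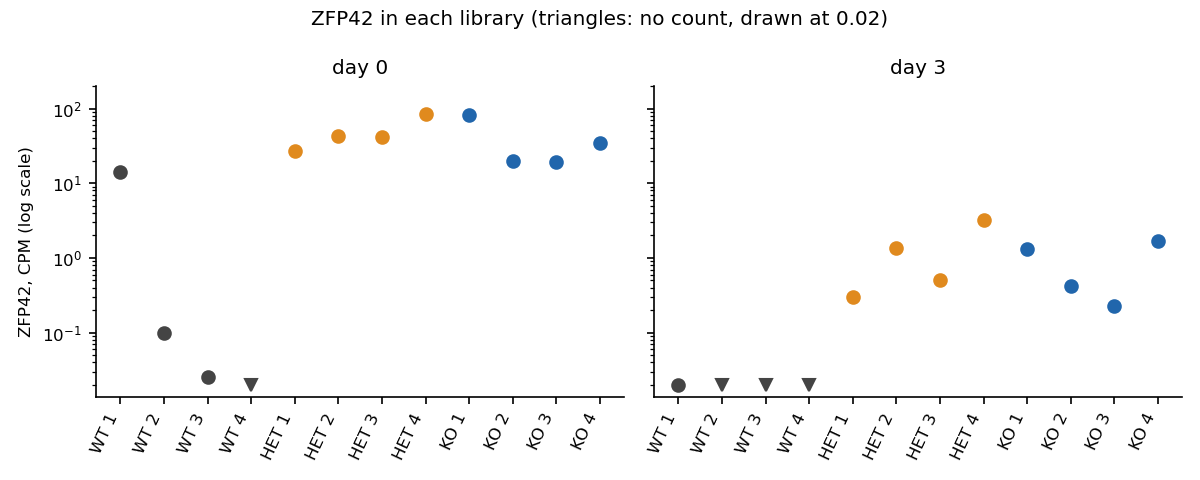
CPM of ZFP42 on a log scale (vertical axis) in each library of day 0 and day 3 (horizontal axis, genotype and replicate number); triangles mark libraries with no count. At day 0 WT replicate 1 had 14.3 CPM, the other WT libraries 0.0998 CPM or less, and all 8 mutant libraries 19.5 CPM or more.

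The stretch before ZFP42 is shown with its CpG, the dinucleotide at which promoters are methylated. The 250 bases upstream of the annotated start (RefSeq, GRCh38.p14, chr4:187995521-187995770, plus strand) held 23 CpG, in capitals, where the same stretch of NANOG held 4. Over the window of 300 bases that all promoters share, ZFP42 held 24 CpG, at the 66.1 percentile, where the median was 14 and the upper quartile 28. Methylation was not measured here.
ZFP42 upstream: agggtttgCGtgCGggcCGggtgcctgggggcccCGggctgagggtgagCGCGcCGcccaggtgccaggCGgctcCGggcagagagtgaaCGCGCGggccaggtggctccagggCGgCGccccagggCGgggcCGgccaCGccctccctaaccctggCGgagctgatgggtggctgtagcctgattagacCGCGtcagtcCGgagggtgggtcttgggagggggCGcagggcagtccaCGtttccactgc
Other genes had a similar pattern. In all, 32 genes, ZFP42 included, were under 0.2 CPM in WT replicates 2, 3 and 4 and over 1 CPM in all 8 mutant libraries of day 0, and 3 genes showed the opposite. The other 31 did not exceed 1.04 CPM in WT replicate 1, where ZFP42 had 14.3 CPM. These genes were picked after their values were seen, so the numbers are a description. The neighbour TRIML2 stood between 6.27 and 26.2 CPM in the 12 libraries of day 0, with ranges that overlapped between genotypes, and TRIML1, the next gene, had no count in any of the 12 libraries.

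At day 3, 8 of the 10 genes passed the count filter, and NANOG and TDGF1 did not. In KO against WT 2 of 8 were called (21.6% of all genes were), LIN28A and ZFP42, both higher. In HET against WT 1 of 8 was called (3.28%), ZFP42. KO against HET gave none of 8 (4.35%), none with an unadjusted p under 0.05 and none by DESeq2. ZFP42 passed the filter only through its mutant libraries, where it was high, so that it had to differ.

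ZFP42 kept its genotype pattern while it was switched off. At day 3 it had 1, 0, 0 and 0 counts in the WT libraries, 0.304, 1.35, 0.512 and 3.22 CPM in HET and 1.32, 0.423, 0.229 and 1.69 CPM in KO. Over the pooled counts, 195 in HET and 156 in KO against 1 in WT, the ratio to WT was 210.1 (95% counting interval 37.3 to 8342) in HET and 166 (29.3 to 6580) in KO. HET and KO had fallen to 2.32% and 2.25% of their own day 0 level. At day 7 the gene had at most 8 counts in any library.

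LIN28A stood at 143, 124, 149.7 and 191 CPM in WT at day 3, 184, 218, 179 and 321 CPM in HET and 280.4, 258, 207 and 316 CPM in KO. The KO libraries lay above the WT libraries without overlap (24.1% of all genes did not overlap), and HET lay between, overlapping both. The log2 difference was 0.81 ± 0.25 in KO (adjusted p = 0.035) and 0.58 ± 0.25 in HET (adjusted p = 0.31). Leaving out WT replicate 1, 2 or 3, or KO replicate 1 or 4, took the KO call away (adjusted p from 0.064 to 0.094), as did log2(TPM + 1) (1.305, limma adjusted p = 0.076). LIN28B stood at 247, 335, 219 and 153 CPM in WT, 303, 404, 402 and 170.0 CPM in HET and 397, 473, 386 and 266 CPM in KO (0.69 ± 0.26 in KO, adjusted p = 0.071).

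POU5F1 had 1 high library in each genotype at day 3. It stood at 2.63, 2.97, 5.20 and 28.1 CPM in WT, 0.608, 1.17, 0.512 and 31.0 CPM in HET and 1.74, 0.646, 0.560 and 5.74 CPM in KO, and replicate 4 was the highest library of each genotype. The groups overlapped, with log2 differences of -2.16 ± 1.33 in KO (adjusted p = 0.27) and -0.20 ± 1.27 in HET (adjusted p = 0.97). Leaving out single libraries moved the KO difference between -3.42 and -0.61. With the replicate number as a block it was -2.05 (adjusted p = 0.012). That fit held all libraries of day 3, and KO and HET numbers were not shown to pair (lowest correlation of deviations -0.035). The blocked fit called 6 genes in KO against WT at day 3, adding POU5F1, LIN28B (0.71, adjusted p = 0.0028), DPPA4 (0.36, adjusted p = 0.049) and SALL4 (0.38, adjusted p = 0.047). In HET against WT it called 2, adding LIN28A (0.56, adjusted p = 0.026). Of the 21563 genes tested, the blocked fit called 8138 in KO against WT, where the main fit called 4649. In HET against WT it called 1895, where the main fit called 708.

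The inducer and the state of the cells also differed by genotype at day 3. NEUROG2, counted over the gene and any NGN2 transgene together, stood at 19469 to 24748 CPM in WT, 14425 to 17469.7 CPM in HET and 7505 to 9748 CPM in KO. At day 0 it had stood at 11.6 to 34.5 CPM in WT, 5.07 to 13.1 CPM in HET and 1.63 to 2.40 CPM in KO. At day 7 it stood at 43.6 to 86.5 CPM in WT, 59.0 to 71.7 CPM in HET and 18.3 to 28.1 CPM in KO. The 10 neuron markers summed to 1266 to 1732 CPM in WT, 1828 to 4648 CPM in HET and 4332 to 8906 CPM in KO. The genes of dividing cells summed to 1288 to 2686 CPM in WT, 1532 to 2347 CPM in HET and 532 to 1366 CPM in KO. The trophectoderm and amnion genes summed to 0.740 to 2.49 CPM in WT, 2.63 to 5.18 CPM in HET and 5.603 to 11.6 CPM in KO, and 2 of the 3 tested, ISL1 and TFAP2A, were higher in KO. ISL1 was the largest part of these sums, with means of 1.52 CPM in WT, 2.12 CPM in HET and 6.37 CPM in KO. No other gene of this list had a mean of 1 CPM, so the sums do not count cells of these lineages. The part of these differences in the levels of LIN28A, ZFP42 and POU5F1 was not tested.

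**Figure D4:**
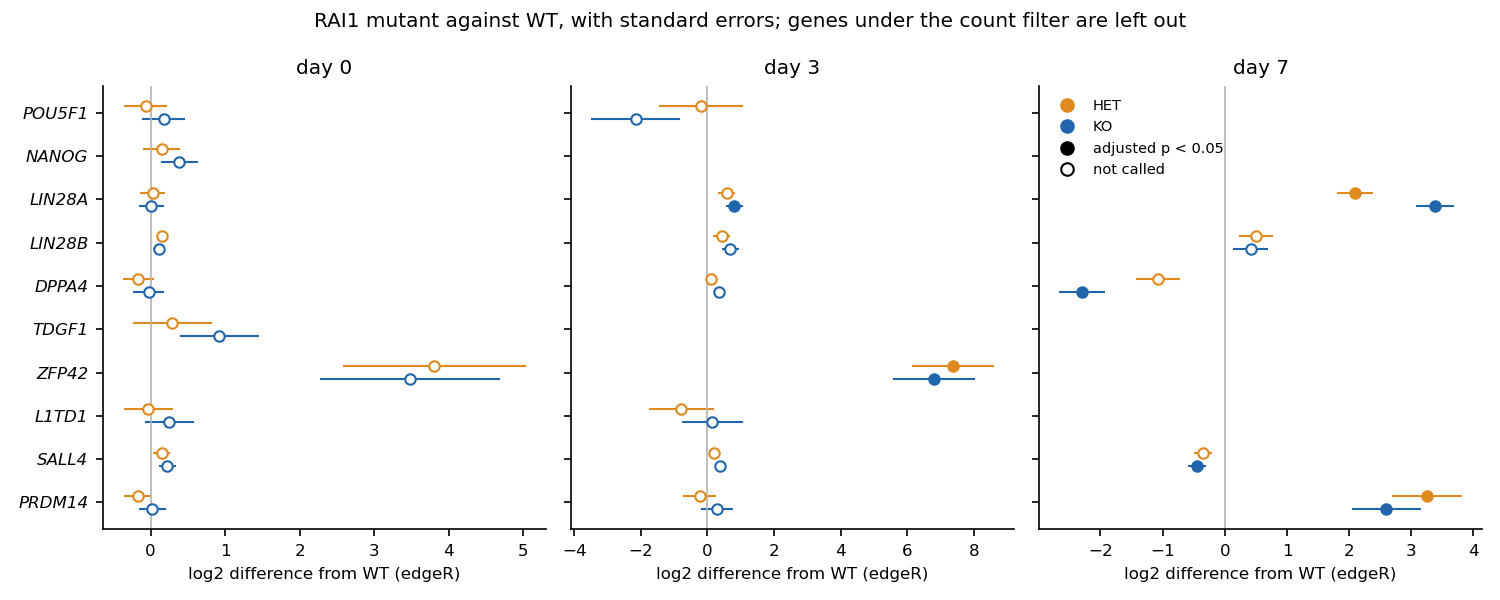
Log2 difference from WT (horizontal axis, edgeR) with its standard error for each gene (vertical axis) in HET (orange) and KO (blue), with a panel per day; filled points have an adjusted p under 0.05, and genes under the count filter are left out. No gene was called at day 0, and at day 7 LIN28A and PRDM14 lay above WT in both genotypes while DPPA4 and SALL4 lay below WT in KO (SALL4 not on TPM).

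At day 7, 5 of the 10 genes passed the filter: LIN28A, LIN28B, DPPA4, SALL4 and PRDM14. In KO against WT 4 of these 5 were called (32.6% of all genes were), LIN28A and PRDM14 higher and DPPA4 and SALL4 lower. In HET against WT 2 of 5 were called (14.4%), LIN28A and PRDM14, both higher. KO and WT libraries did not overlap for any of the 5 genes (39.4% of all genes did not). The other 5 genes were near 0 in all groups: POU5F1 did not exceed 0.233 CPM, and NANOG and TDGF1 did not exceed 5 and 2 counts in any library.

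LIN28A showed the widest gap that was called in KO. It stood at 11.8, 26.9, 22.6 and 26.8 CPM in WT, 43.6, 116, 140.0 and 102 CPM in HET and 277, 219.8, 210.3 and 213 CPM in KO, 3 ranges with no overlap. The log2 difference from WT was 2.09 ± 0.29 in HET (adjusted p = 9.0e-04) and 3.38 ± 0.31 in KO (adjusted p = 1.5e-05). KO also exceeded HET, by 1.29 ± 0.28 (adjusted p = 0.041), the only one of the 5 genes called between the mutants (1.40% of all genes were), but this call was lost in 7 of 8 fits that left out 1 library and on log2(TPM + 1) (0.84, limma adjusted p = 0.83). In KO the day 7 level was 12.7% of that of day 0, in HET 5.21% and in WT 1.25%.

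LIN28B was not called between genotypes at day 7. It stood at 172, 247, 209.9 and 284 CPM in WT, 117, 424, 427 and 426 CPM in HET and 325, 303, 285 and 309 CPM in KO, and HET replicate 1 lay far below the other HET libraries. The log2 difference was 0.41 ± 0.28 in KO (adjusted p = 0.27) and 0.50 ± 0.28 in HET (adjusted p = 0.25). Without HET replicate 1 the HET difference was 0.73 (adjusted p = 0.0038), and all 5 genes were called in HET. Over all genes that fit called 7674, where the main fit called 3129 of 21714. On the TPM scale LIN28B exceeded LIN28A 10.6, 7.17, 7.39 and 8.25 times in the WT libraries of day 7. The ratio was 2.12, 2.48, 2.19 and 2.98 in HET and 0.862, 1.04, 1.07 and 1.08 in KO, so the genotypes did not overlap. At day 0 the ratio had been 0.0967 to 0.114 in WT and no higher than 0.153 in any mutant library. The change of this ratio over time was thus from far below 1 to far above 1 in WT and to about 1 in KO, given here as a description without a test.

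PRDM14 stood at 0.474, 0.670, 0.939 and 3.13 CPM in WT, 4.55, 16.8, 14.4 and 19.1 CPM in HET and 5.90, 7.78, 7.23 and 11.8 CPM in KO. Neither mutant overlapped WT (14.0% of all genes did not overlap between HET and WT), and HET and KO overlapped each other. The log2 difference was 3.25 ± 0.56 in HET (adjusted p = 0.0030) and 2.60 ± 0.55 in KO (adjusted p = 0.0034). WT replicate 4 was the highest WT library, and without it the differences were 4.18 in HET and 3.53 in KO. On log2(TPM + 1) the KO difference was 1.24 (limma adjusted p = 0.053). PRDM14 is also known as an early germ cell gene. The germ cell markers of day 7 summed to 7.99 to 13.2 CPM in WT, 1.31 to 4.46 CPM in HET and 0.180 to 0.812 CPM in KO (5 genes), with DAZL at 0 in WT and HET. TFAP2C was the highest of them, with means of 9.31 CPM in WT, 2.22 CPM in HET and 0.219 CPM in KO. No other gene of this list had a mean of 1 CPM, so the sums do not count germ cells. Of the 5 genes only TFAP2C passed the count filter, and it was lower in HET (-2.13, adjusted p = 0.012) and in KO (-5.45, adjusted p = 6.5e-05). It was near 0 in KO and passed the filter only through groups where it was higher, so the KO call is a description. The part of these genes in the level of PRDM14 was not tested.

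DPPA4 was lower in KO, and so was SALL4 on the count scale. DPPA4 stood at 34.6, 35.3, 23.6 and 28.4 CPM in WT, 13.2, 13.5, 9.52 and 23.1 CPM in HET and 3.79, 4.99, 4.17 and 12.1 CPM in KO. WT lay above both mutants without overlap, and KO replicate 4 was far above the other KO libraries. The difference was -2.29 ± 0.37 in KO (adjusted p = 6.6e-04) and -1.07 ± 0.36 in HET (adjusted p = 0.060). The HET difference was called with DESeq2 (adjusted p = 0.022), which called 3 of the 5 genes in HET. It was also called without a filter (0.047), with the 8 libraries of the groups (0.041) or all 36 (0.0053), and without HET replicate 1 (0.040) or 4 (0.033), all adjusted p. It stayed uncalled on TPM, with library size alone and with the structural RNA covariate. Leaving out any other single library also left it uncalled (edgeR adjusted p up to 0.17). SALL4 stood at 51.3, 64.1, 54.9 and 61.9 CPM in WT, 44.8, 43.5, 47.8 and 50.6 CPM in HET and 35.7, 40.4, 47.0 and 48.0 CPM in KO, with the KO and HET libraries all below the WT libraries. Its difference was small, -0.45 ± 0.14 in KO (adjusted p = 0.029) and -0.36 ± 0.14 in HET (adjusted p = 0.11). The KO call of SALL4 was lost in 5 of 8 fits that left out 1 library (adjusted p from 0.056 to 0.081), and with small structural RNA as a covariate (adjusted p = 0.082). On log2(TPM + 1) the difference was 0.03 (limma adjusted p = 0.98), where the median of all genes moved by 0.34.

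**Figure D5:**
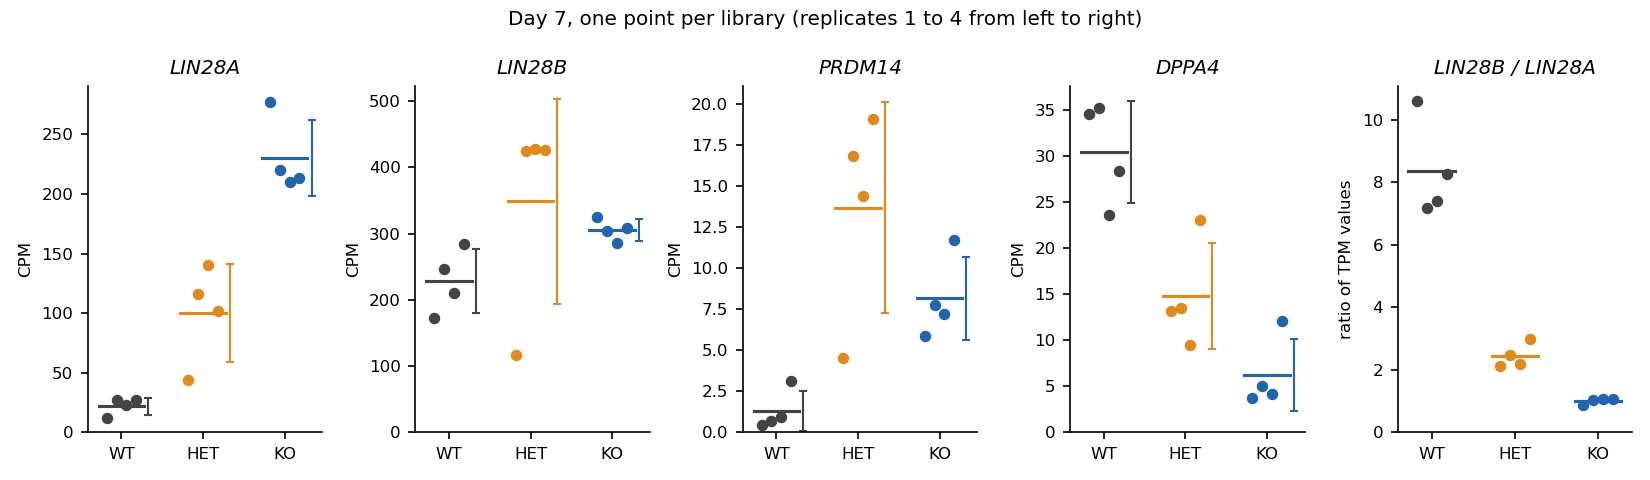
CPM at day 7 of LIN28A, LIN28B, PRDM14 and DPPA4, and the LIN28B to LIN28A ratio of TPM values (vertical axes), by genotype (horizontal axes); each point is 1 library, thick bars are means and thin bars SD of 4 libraries. LIN28A and the ratio are ordered by genotype with no overlap, and HET replicate 1 is low for LIN28A, LIN28B and PRDM14.

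At day 7 the neuron markers summed to 5317 to 10636 CPM in WT, 10754 to 14861 CPM in HET and 11884 to 14543 CPM in KO. The genes of dividing cells summed to 31.4 to 231 CPM in WT, 13.8 to 25.5 CPM in HET and 12.9 to 15.9 CPM in KO. The 8 mesenchymal genes summed to 33.2 to 62.0 CPM in WT, 6.63 to 39.9 CPM in HET and 4.81 to 6.27 CPM in KO. Of the 4 tested, all 4 were lower in KO (median log2 difference -2.63) and 1, COL1A2, in HET (-2.69). The 7 trophectoderm and amnion genes summed to 5.71 to 16.99 CPM in WT, 3.31 to 20.6 CPM in HET and 15.8 to 46.2 CPM in KO. ISL1 was again the largest part, with means of 11.2 CPM in WT, 9.18 CPM in HET and 24.8 CPM in KO. Of the 3 tested, 1, TFAP2A, was higher in KO (4.07) and in HET (2.75). The part of these differences in the 5 genes was not tested. The 8 mesendoderm genes summed to 0.223 to 0.893 CPM in WT, 0.222 to 0.373 CPM in HET and 0.259 to 0.517 CPM in KO. The highest group mean among them was 0.208 CPM, for EOMES in KO, and TBXT and GSC had no count in any day 7 library.

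The change itself was then tested in each interval. From day 0 to day 3 none of the 10 genes changed differently in KO than in WT (8.55% of all genes did) or in HET than in WT (0.271%). In KO, NANOG and LIN28A had an unadjusted p under 0.05, and in HET none had. DESeq2 called none in either, and limma on log2(TPM + 1) called ZFP42 in each, at -2.55 in KO and -2.99 in HET, where edgeR gave 3.31 ± 2.62 and 3.48 ± 2.60. From day 3 to day 7, 4 of 10 differed in KO (18.5%). LIN28A fell less in KO than in WT, by 2.56 ± 0.36 on the log2 scale (adjusted p = 5.1e-06), and PRDM14 differed by 2.28 ± 0.66 (adjusted p = 0.013). DPPA4 fell more in KO, with a difference of -2.67 ± 0.39 (adjusted p = 6.5e-06), and so did SALL4, with -0.85 ± 0.20 (adjusted p = 0.0027). In HET 2 of 10 differed (4.74%), LIN28A by 1.53 ± 0.36 (adjusted p = 0.0091) and PRDM14 by 3.51 ± 0.67 (adjusted p = 0.0015). On log2(TPM + 1) limma called DPPA4 in KO and PRDM14 in HET, and the other 4 calls were lost.

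Related genes were read in 6 lists, each beside the share of all genes. From day 0 to day 3 in WT, where 60.0% of all genes were called and 28.7% lower, 17 of 20 other tested genes of primed pluripotency fell and none rose, among them ESRG (-12.47), a stem cell long noncoding RNA, LCK (-12.45) and the zinc finger gene ZSCAN10 (-12.10, all log2). Of 6 naive pluripotency genes, 2 fell, with NR5A2 at -6.96, and 2 rose, TBX3 (3.66) and ESRRB (2.45). In the NODAL and activin pathway, for which TDGF1 is the coreceptor, 8 of 15 fell and 3 rose. CER1 (-9.24), FOXH1 (-8.64) and LEFTY2 (-5.42), 2 NODAL pathway antagonists and the DNA-binding partner of its SMAD proteins, were among those that fell. ESRG, LCK, ZSCAN10, NR5A2, CER1 and FOXH1 had means of 0.0687 CPM or less at day 3. They passed the filter through their higher day 0 level, so that they had to fall. Of 8 repressors known to silence pluripotency genes, 6 fell and none rose, with NR6A1, the germ cell nuclear factor, at -2.16.

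In the LIN28 and let-7 list, 4 of 12 genes fell in WT by day 3 and 1 rose, 41.7% against 60.0% of all genes, with a median log2 difference of -0.30 against 0.07. HMGA2 (-2.72), TRIM71 (-1.80) and IGF2BP1 (-1.10), all known let-7 targets, were among those that fell. At day 7, 4 of 12 were higher in KO than in WT and none lower, 33.3% against 32.6% of all genes, a share at the background, and none was called in HET. MIR100HG, the host transcript of a let-7a gene, stood at 16.7 ± 7.78 against 2.71 ± 2.09 CPM in KO against WT (2.65, adjusted p = 0.0058). DICER1, which cuts the let-7 hairpin, stood at 312 ± 19.6 against 182 ± 39.6 CPM (0.78, adjusted p = 0.030). Among the SALL, NuRD and PRDM14 partner genes, 7 of 15 fell and 3 rose in WT by day 3 (66.7% against 60.0% of all genes). CBFA2T2, the PRDM14 corepressor, rose by 3.63, and SALL2 fell with a log2 difference of -3.90. At day 7, 4 of the 15 were lower in KO and 1 higher, again 33.3% against 32.6% of all genes. The NuRD deacetylase gene HDAC1 stood at 9.15 ± 1.53 against 24.3 ± 3.01 CPM (-1.41, adjusted p = 1.9e-04), SALL1 at 21.1 ± 5.93 against 113 ± 24.0 CPM (-2.42) and CBFA2T2 at 69.4 ± 5.04 against 234 ± 99.0 CPM (-1.74).

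The other lists were mixed between genotypes. At day 3 in KO, 3 of 15 primed pluripotency genes were higher and 3 lower (40.0% called, against 21.6% of all genes), and CD9, a surface tetraspanin, stood at 0.693 ± 0.222 against 17.3 ± 5.93 CPM (-4.62, adjusted p = 1.4e-04). At day 7, 6 of 14 were higher in KO and 1 lower (7 of 14 called, where 32.6% of all genes were), with SFRP2, a secreted WNT modulator, at 4.89 ± 2.45 against 0.774 ± 0.734 CPM (2.69, adjusted p = 0.0038). In HET at day 7, 1 of 14 was called, where 14.4% of all genes were. NR5A2 stood at 3.73 ± 2.698 against 0.0741 ± 0.0610 CPM at day 7 in KO against WT (5.62, adjusted p = 3.6e-04). Its WT level was near 0 and it passed the filter only through mutant libraries, so this call is a description. At day 0 no gene of the 6 lists was called in KO or in HET.

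Across the 36 libraries, NANOG, TDGF1 and L1TD1 had nearly the same profile on the log2(CPM + 1) scale, with Pearson's r of 0.997 between NANOG and L1TD1 and between TDGF1 and NANOG. LIN28B was unlike every other gene of the 10, with LIN28A as the nearest at -0.10. LIN28A was nearest to PRDM14 (0.900), and DPPA4 to SALL4 (0.940). Outside the 10, the genes closest to their mean profile were PUS1 (0.979), DHX33 (0.977) and DNMT3B (0.976), and those closest to POU5F1 were ARHGEF35-AS1 (0.991), FAM83G (0.990) and ALPL (0.988). These correlations describe 36 libraries that fall into 9 groups and share the day of induction.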

How the data were processed

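Gene-level values of 36 libraries (9 groups of 4) were used. The deposited expected counts are RSEM estimates, and all were whole numbers in the table. The deposited TPM values are per transcript length and sum to the same total in each library. Per the submitters' processing notes, cutadapt 4.8, STAR 2.7.8a, RSEM 1.3.3, FastQC 0.11.8 and MultiQC 1.20 were used with GRCh38; whether counting used strand is not given in the sources used here. Reads were paired-end of 151 bases.

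The 4 reporter features (at most 0.0171% of a library) were left out, and 62710 genes were kept. Each of the 19 comparisons was fitted across all genes with edgeR 4.0.16 in R 4.3.3 (quasi-likelihood test, TMM scaling, filterByExpr, Benjamini-Hochberg, threshold 0.05), on the 12 libraries of a day or of a genotype, or on all 36 libraries for differences in change. The code was tested on simulated data. Alternatives were DESeq2 1.42.0, limma 3.58.1 on log2(TPM + 1) or log2(TPM + 0.1), library size alone, no filter, other sets of libraries, a covariate for small structural RNA, a replicate block and leaving out each library. Library totals ran from 23948079 to 56678796 counts. Intervals (95%) and floors (3 counts) cover counting error only. The SE of a log2 difference is its size divided by the square root of the edgeR F statistic.

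Same-numbered libraries deviated together (every correlation of deviations above 0.1) in KO against WT at day 0 (0.253 to 0.626) and day 3 (0.139 to 0.548) and in HET against WT at day 3 (0.154 to 0.766). The block was fitted on all libraries of a day or genotype, or on all 36 libraries, so these fits also held libraries whose numbers were not shown to pair. The pairing comes from the data: the labels name no shared litter, day or culture behind a number, and all 36 libraries carry the same batch label. The genes and lists were chosen with earlier results of these data known. Genes of lists were named by size of change: up to 3 per list called in WT from day 0 to day 3, and up to 3 called in a mutant against WT on any day, with a mean of at least 1 CPM in the higher group. Promoter and microRNA sequences are from RefSeq (GRCh38.p14) and 3′UTRs from GENCODE 29. Promoters on chromosome 8, where PRDM14 lies, were left out. Promoters of POU5F1, LIN28A, TDGF1 and SALL4 were not in the table used. Figures were drawn with matplotlib 3.10.9.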

Additional observations from a re-analysis of the deposited data

Results flagged for a closer look

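Of 71 groups of 4 libraries in which a gene could be examined, 7 held a library that stood apart from the other 3 by Dixon's test, and chance alone flags about 1 in 20 groups, or 3.55 of 71. POU5F1 stood at 28.1 CPM in WT day 3 replicate 4 (the others 2.63 to 5.20 CPM) and at 31.0 CPM in HET day 3 replicate 4 (the others 0.512 to 1.17 CPM). PRDM14 stood at 8.34 CPM in the same WT library (the others 3.82 to 4.52 CPM). ZFP42 stood at 14.3 CPM in WT day 0 replicate 1 (the others 0 to 0.0998 CPM). At day 7, LIN28A stood at 277 CPM in KO replicate 1 (the others 210.3 to 219.8 CPM), LIN28B at 117 CPM in HET replicate 1 (the others 424 to 427 CPM) and DPPA4 at 12.1 CPM in KO replicate 4 (the others 3.79 to 4.99 CPM).

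The change from day 3 to day 7 differed from that of WT, by the edgeR test of the difference itself, for LIN28A (2.56), PRDM14 (2.28), DPPA4 (-2.67) and SALL4 (-0.85) in KO, and for LIN28A (1.53) and PRDM14 (3.51) in HET, all on the log2 scale. Their adjusted p-values stand with the comparison above.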

How the results depend on the processing

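Of 1634 values recomputed under alternatives other than leaving out a library, 1536 kept their direction and side of the threshold, 27 crossed it upwards, 62 lost it and 9 reversed. The reversed ones were all on TPM: SALL4 in KO against WT at day 7 was 0.026, 0.031 and 0.026 with log2(TPM + 1), log2(TPM + 0.1) and no filter, LIN28B in WT from day 0 to day 3 was -0.95 and -0.99, and the ZFP42 difference in change from day 0 to day 3 was -2.55 in KO and -2.99 in HET, with and without the filter. The median of all genes moved on log2(TPM + 1) by 0.32 and 0.34 in KO against WT at day 3 and day 7, by 0.22 and 0.65 in HET, and by -0.69 and -0.23 in WT from day 0 to 3 and from day 3 to 7. The share of calls that were higher moved with it, from 58.6% to 87.0% in KO at day 3, from 52.1% to 74.1% in KO at day 7 and from 57.7% to 90.2% in HET at day 7.

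The count of the 10 genes called moved as follows, and the cause was not tested. On TPM, 1 gene was called in KO and in HET against WT at day 0, 0 in KO and in HET at day 3, 2 in KO at day 7 (1 without a filter), 0 in HET at day 7 without a filter, 0 in KO against HET at day 7, 3 in WT from day 3 to 7, 0 in HET from day 3 to 7 (2 with log2(TPM + 0.1)), 1 in KO from day 3 to 7, 1 in the KO and in the HET change from day 0 to 3, 1 or 2 in the KO change from day 3 to 7 and 1 or 0 in the HET change. All 36 libraries fitted together gave 4 in KO against WT at day 3 and 2 in KO against HET at day 7. The latter was also 2 with DESeq2 and with the structural RNA covariate, and 0 with library size alone or the 8 libraries of the groups. Leaving out single libraries gave 0 to 1 against WT at day 0 in each mutant, 1 to 2 in KO at day 3, 3 to 4 in KO at day 7, 2 to 5 in HET at day 7, 0 to 1 in KO against HET at day 7, 4 to 5 in WT, 5 to 6 in HET and 4 to 5 in KO from day 3 to 7 and 2 to 3 in the HET change.

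The replicate block gave 1 gene in KO against WT at day 0, 6 at day 3 and 2 in HET at day 3, as above. Where the numbers are not shown to pair the libraries, the block gave 1 gene in HET at day 0 (ZFP42, 5.16) and 2 in KO against HET at day 7 (adding DPPA4, -1.26), and it called DPPA4 in HET at day 7 (-1.18) and in the HET change from day 3 to 7 (-1.24). Over all genes, the calls moved by over 1.5 times as follows, with the low values on TPM. Against WT at day 0 they went from 425 in KO to 182 to 241 (TPM), 902 (DESeq2) or 960 (block), and from 333 in HET to 143 to 192, 649 or 689. At day 3 they went from 4649 in KO to 288 (TPM, no filter) or 8138 (block), and from 708 in HET to 37 (TPM), 1321 (DESeq2), 1895 (block) or 1416 (without HET replicate 4). At day 7 they went from 7070 in KO to 322 and from 3129 in HET to 49 (TPM, no filter), with 7674 without HET replicate 1. KO against HET went from 175 to 109 at day 0, from 937 to 35 (TPM, no filter), 334 (without HET replicate 1) or 2739 (block) at day 3, and from 305 to 33 (TPM), 146 (without KO replicate 3), 626 (without HET replicate 3) or 1338 (structural RNA covariate) at day 7. On TPM the calls over time fell to 5721 in WT from day 3 to 7, 4369 and 1603 in HET at the 2 steps and 7306 and 3847 in KO. The differences in change went from 2118 to 270 and 4588 to 781 in KO, and in HET from 67 to 27 (TPM) or 196 (DESeq2) and from 1174 to 72 (TPM) or 2353 (without HET replicate 1). NANOG (at most 9 counts in a library) and TDGF1 (at most 3) were too low after day 0 to be tested between genotypes at day 3 or day 7.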
